A study of Mus musculus with 3 samples.

Results

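The genes examined were 7 collagen genes, Col3a1, Col5a1, Col4a1, Col4a2, Col6a2, Col6a3 and Col8a2, around which windows of Runx3 association were sought in mouse superficial zone (SFZ) chondrocytes, the flattened cells that line the surface of articular cartilage. A window belonged to a gene when the deposited tables listed that gene among its neighbouring genes. Rows were found for 6 of the 7 genes, out of 1966 genes listed as neighbours in all. These 6 genes formed 10 gene and window pairs on 9 of the 1000 windows, because Col4a1 and Col4a2 shared 1 window. Col6a3 had no row in either list and is described from a gene annotation instead. The genes were chosen for having windows, so their windows and ranks are a description and were not tested.

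The data were chromatin immunoprecipitation sequencing (ChIP-seq) of SFZ chondrocytes from C57BL/6 mice, which were 5 days old, grown as a monolayer. All 3 libraries came from cells given a 3xFLAG-tagged Runx3 expression vector by lipofection. One library each was made with an antibody against FLAG (clone M2, RUNX3-FLAG), with an antibody against mouse IgG, and with no antibody (input). The protein mapped was thus tagged and supplied by a vector. Each group was 1 library, so no value had a replicate error, and how deeply each was sequenced was unknown. The files gave 2 lists of the RUNX3-FLAG library, each with 1000 windows of equal length in order of rank, where rank 1 was the highest. One list also named IgG without stating its control, and that list is referred to as IgG-named. The other is called the main list, and ranks refer to it unless stated. Both lists came from the same library, so their overlap was not independent evidence. The study called more peaks than these lists hold, and a gene without a window here had none among the 1000 listed.

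Collagens are trimers of polypeptide chains, and each kind of chain is encoded by its own gene. Type III and type V chains belong to the fibrillar collagens, of which type V is a minor component inside larger fibrils. Type IV chains form the sheet-like network of basement membranes, and in cartilage they are found around the cells. Type VI forms beaded microfibrils that are concentrated in the pericellular matrix of chondrocytes, and type VIII is a short-chain collagen that forms networks. Runx proteins are transcription factors that recognise a short DNA motif through their Runt domain and bind enhancers as well as promoters.

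The sequences of the 5 windows with more than 1 Runx motif or with an AP-1 motif are shown first, because they carry the spacing described below, with the Col3a1 window as the highest-ranked and the Col8a2 window as the richest in G and C. All are plus strands of mm9, written 5′ to 3′, and capitals mark the Runx motif in either orientation.
Col3a1 window of rank 43: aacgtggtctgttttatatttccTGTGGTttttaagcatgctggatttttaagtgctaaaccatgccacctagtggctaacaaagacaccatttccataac
Col6a2 window of rank 117: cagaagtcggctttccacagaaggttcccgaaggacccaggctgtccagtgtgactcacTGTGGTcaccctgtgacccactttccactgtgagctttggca
Col6a2 window of rank 369: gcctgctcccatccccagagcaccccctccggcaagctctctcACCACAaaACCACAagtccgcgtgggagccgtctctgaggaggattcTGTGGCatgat
Col5a1 window of rank 334: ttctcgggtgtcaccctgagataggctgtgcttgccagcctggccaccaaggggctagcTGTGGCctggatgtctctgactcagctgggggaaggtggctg
Col5a1 window of rank 808: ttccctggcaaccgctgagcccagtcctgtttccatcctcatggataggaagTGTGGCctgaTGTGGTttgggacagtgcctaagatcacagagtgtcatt
Col4a1 and Col4a2 window of rank 872: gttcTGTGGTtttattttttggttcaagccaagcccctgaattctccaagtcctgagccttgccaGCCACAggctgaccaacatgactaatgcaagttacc
Col8a2 window of rank 515: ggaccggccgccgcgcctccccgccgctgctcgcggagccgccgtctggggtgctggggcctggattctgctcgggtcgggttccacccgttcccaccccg

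To describe where the windows lay, each was placed on the transcript that the authors' tables gave for the gene, with distances measured from the window centre to the transcription start site. The 9 windows had ranks from 43 to 872 with a median of 515, against a median of 500.5 for any list of 1000 ranks. The distance to the start of the collagen gene ranged from 2.47 to 139 kb over the 10 pairs, with a median of 49.3 kb. Only 1 of the 10 pairs lay within 5 kb of the start, 5 lay within 50 kb and 5 lay beyond. In the main list as a whole, 36.5% of windows lay within 5 kb of the nearest start, and the median distance was 19.0 kb. The corresponding median over the 9 collagen windows was 45.8 kb. The windows were thus spread over the whole range of ranks and were mostly far from the deposited starts. Other annotated starts can be closer, as a GENCODE start of Col8a2 was 561 bp from its window.

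**Figure D1:**
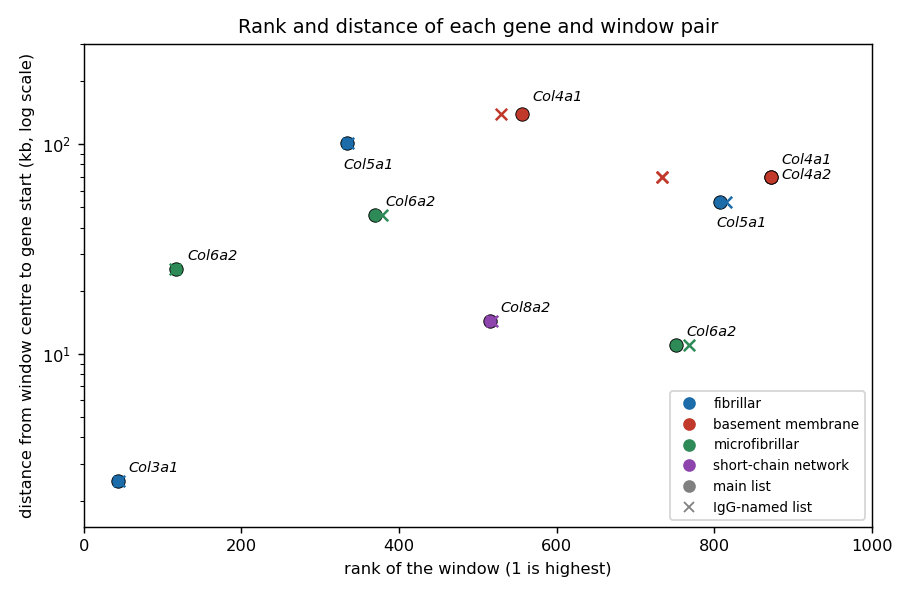
Rank of each window (x axis) against its distance from the deposited start of the collagen gene in kb (y axis, log scale). Circles are the main list, crosses the IgG-named list and colours the class of collagen. The Col3a1 window stands alone at the high-ranked and close end, at 2.47 kb, and the Col4a1 and Col4a2 windows lie at 69.4 kb or more.

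Of the 9 windows, 4 lay inside a collagen gene, and none overlapped an annotated exon of any gene. Across the main list, 37.5% of windows lay inside a gene by the authors' location labels. Of the 10 pairs, 5 lay upstream of the collagen start and 1 beyond the end of the gene. One of the examined genes was deposited as the nearest gene for 7 of 9 windows, and the exceptions had Col6a1 and Rxra. By the start alone, one of the examined genes was the closest of the listed neighbours for 9 of 9 windows. The windows were chosen for having such a neighbour, so high counts are partly built in. Genes missing from the tables were not considered here.

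**Figure D2:**
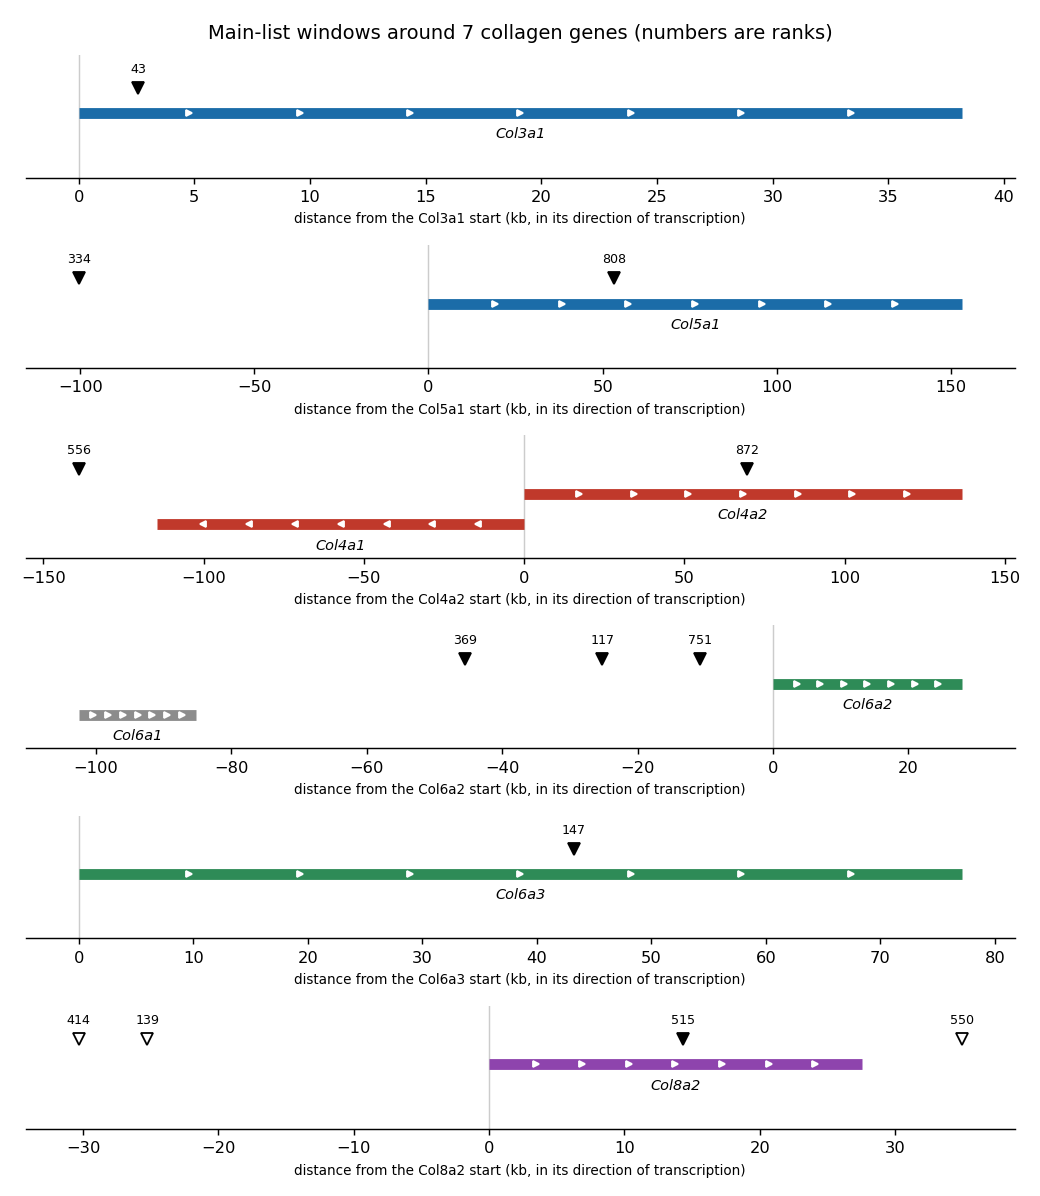
Genes (bars, white marks pointing in the direction of transcription) and main-list windows (triangles with their ranks) against the distance in kb from the start of the gene named under each axis, on GENCODE gene models, with colours by class of collagen and grey for Col6a1. Filled triangles are the windows of the genes drawn, except the Col6a1 window of rank 631, which lies outside the panel. Open triangles are other windows within 60 kb, which occur only around Col8a2.

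The fibrillar genes had 3 windows. Col3a1, which encodes the chain of type III collagen, had the highest-ranked window of all 7 genes, at rank 43 in the main list and rank 45 in the IgG-named list. This window, chr1:45370915-45371015 on mm9, lay 2474 bp downstream of the start in intron 1 of 50, at 6.62% of the length of a gene of 37.4 kb. The tables also listed Col5a2, which encodes another type V chain and lies 189 kb away by its start, as a neighbour of this window. Col3a1 and Col5a2 therefore shared 1 deposited window, which lay inside Col3a1.

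Col5a1, which encodes the alpha 1 chain of type V collagen, had 1 window on each side of its start. The window of rank 334 (chr2:27641488-27641588) lay at -100667 bp, upstream of the start, and the tables gave Rxra, which encodes a retinoid receptor, as its nearest gene. The window of rank 808 (chr2:27795088-27795188) lay 52.9 kb downstream, in intron 4 of 65, at 35.1% of the length of a 151 kb gene. These windows were 154 kb apart. Their ranks in the IgG-named list were 335 and 815. A gene with 2 or more windows was not rare, as 14.8% of the neighbouring genes in the main list had that many.

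The basement membrane genes Col4a1 and Col4a2 encode the alpha 1 and alpha 2 chains of type IV collagen and stand head to head, with deposited starts 199 bp apart. No listed window lay at the short interval between their starts. The window they shared, at rank 872 (chr8:11382404-11382504), lay in intron 4 of 47 of Col4a2, 69.4 kb downstream of the Col4a2 start and 69.6 kb upstream of the Col4a1 start. It sat at 51.0% of the length of Col4a2, a gene of 136 kb. Among the collagen windows it also differed most between the lists, with rank 734 in the IgG-named list, a difference of 138, and a position shifted by 33 bp. Col4a1 had a further window at rank 556 (chr8:11173849-11173949), which was at rank 530 in the IgG-named list. This window lay 139 kb from the Col4a1 start and 24.5 kb beyond the end of the gene, on the side of Irs2, an adaptor of insulin signalling that the tables gave as the other neighbour. The 2 windows of Col4a1 thus stood 209 kb apart, on either side of the gene and not in it.

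The microfibrillar gene Col6a2, which encodes the alpha 2 chain of type VI collagen, had 3 windows, the most of the 7 genes. In the main list, 3.2% of neighbouring genes had 3 or more windows. All 3 lay upstream, between the end of Col6a1 and the start of Col6a2, genes that follow each other on the minus strand with a gap of 85.4 kb. The window of rank 117 (chr10:76111566-76111666) was 25.5 kb from the Col6a2 start. The window of rank 369 (chr10:76131865-76131965) was 45.8 kb from it, and the tables gave Col6a1 as its nearest gene. The window of rank 751 (chr10:76097119-76097219) was closest, at 11.0 kb. The order of the ranks therefore did not follow the order of the distances. The 3 windows spanned 34.7 kb and had ranks 116, 378 and 768 in the IgG-named list. Each had the other 2 within 50 kb, whereas 4.4% of main-list windows had at least 2 others that close. Col6a1, which encodes the alpha 1 chain, was a listed neighbour of the same 3 windows, at 77.2, 56.9 and 91.6 kb from its own start in order of rank. It had 1 more window, at rank 631 and 177 kb, in the main list only.

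Col6a3, which encodes the larger alpha 3 chain of type VI collagen, had no row in the deposited tables. In GENCODE gene models on mm9, the window of rank 147 (chr1:92697243-92697343) nevertheless lay inside this gene. It was 43.2 kb from the start, at 56.1% of a gene of 77.1 kb, in intron 9 of both long transcripts, which have 43 and 41 exons. This distance depended on the start used. A shorter annotated transcript of 28 exons starts much closer, at chr1:92699098, and the window lay in its intron 2. For the window of rank 147, the tables gave Mlph, whose start is 114 kb away, as the nearest gene and Cops8 as the other neighbour. Its rank in the IgG-named list was 150. That list held a further window at rank 365 (chr1:92646854-92646954), 16.5 kb beyond the end of Col6a3, with no counterpart in the main list. Of 499 main-list windows inside a GENCODE protein-coding gene, 81 (16.2%) had no deposited row under the symbol of such a gene. Only symbols were matched, so windows whose gene was listed under another symbol are included in the 81. How many of these genes were missing altogether, as Col6a3 was, is not known.

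Col8a2, which encodes a chain of short-chain type VIII collagen, had 1 window at rank 515 (chr4:125978285-125978385) and rank 518 in the IgG-named list. It lay 14.3 kb downstream of the deposited start, at 51.9% of the length of a 27.5 kb gene. The deposited location was the 5′ untranslated region, but the window lay in intron 2 of 3 and overlapped no exon. The same was true of 73 of the 136 rows with this location in the main list. In GENCODE, the nearest start of a Col8a2 transcript was 561 bp from the window. The surroundings were crowded, with 3 other windows within 50 kb, at ranks 139, 414 and 550. They lay 25.3 and 30.3 kb upstream and 34.9 kb downstream of the Col8a2 start, and 0.880, 0.194 and 0.016 kb from the starts of Trappc3, Mtap7d1 and Adprhl2, in order of rank. These 3 genes were named after their values were seen.

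All 9 windows overlapped a window of the IgG-named list by 1 bp or more, and 7 of 9 were identical. Over the main list, 91.3% of windows were shared. The exceptions to identity were the Col5a1 window of rank 808, shifted by 1 bp, and the window of Col4a1 and Col4a2.

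To describe what the windows had in common beyond the choice of genes, their sequences were searched on both strands for the Runx motif TGNGGN, where each N is C or T. The study derived this motif from its top-ranked peaks, so its presence in the list was not an independent result. The motif was found in 6 of 9 collagen windows (66.7%, Wilson 95% interval 35.4 to 87.9) and in 66.1% of main-list windows (63.1 to 69.0). The interval over 9 windows thus contained the share of the list. Intervals cover counting error only. In stretches of the same length 500 bp to the left, 0 of 9 held the motif, and 500 bp to the right 2 of 9 did, against 161 and 160 of the 1000 windows. The window inside Col6a3 also held the motif. The windows without it were those of Col8a2 (rank 515), Col4a1 (rank 556) and Col6a2 (rank 751).

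The 9 windows held 10 matches, of which 7 had their centre within 20 bp of the window centre. The main list held 888 matches, whose positions were not summarised, so this count has no background and is a description. More than 1 match was found in 3 of 9 windows (33.3%), and in 19.6% of the main list. The Col6a2 window of rank 369 held 3 matches, of which 2 on the minus strand were separated by 2 bases close to the centre. In the Col5a1 window of rank 808, 2 matches on the plus strand were separated by 4 bases. In the window of Col4a1 and Col4a2, the 2 matches lay on opposite strands with 55 bases between them. The IgG-named version of this window, shifted by 33 bp, held only the second of them. Close spacing was therefore seen in 1 window each of Col6a2 and Col5a1 and not in the type IV window. Spacing was not summarised over the main list, so it has no background and no contrast of classes is read from it.

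The AP-1 motif, TGANTCA with C or G at N, is recognised by Fos and Jun dimers. It was found in 2 of 9 collagen windows (22.2%, 6.32 to 54.7), and in 9.1% of the main list (7.47 to 11.0). In the Col6a2 window of rank 117, the AP-1 motif stood 1 base before the Runx motif, in the stretch TGACTCACTGTGGT. Of 76 main-list windows with both motifs, 19 had them 0 to 5 bases apart and 5 had exactly 1 base between them. In the Col5a1 window of rank 334, the AP-1 motif stood 11 bases after the Runx motif. Both genes thus had 1 window with the pair of motifs and 1 with closely spaced Runx motifs. The remaining Col6a2 window, of rank 751, held neither motif. How often other genes of the list had both kinds of window was not counted, so this is a description. Of other motifs sought, an ETS motif (NGGAAN, with A or C first and A or G last) occurred in 2 of 9 windows and in 30.5% of the list. In the Col3a1 window it overlapped the Runx motif by 1 base, and in the Col5a1 window of rank 808 it ended directly before the first Runx motif. A Sox motif (NACAANG, with A or T at each N) occurred in the Col3a1 window and in 3.1% of the list. No collagen window held the cyclic AMP response element TGACGTCA, which occurred in 1.4% of the list. The GC box GGGCGG was also absent from them and occurred in 13.8% of the list. The same held for the TEAD motif GGAATG, which occurred in 11.6%. A match describes the letters only and does not show that a factor was bound.

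**Figure D3:**
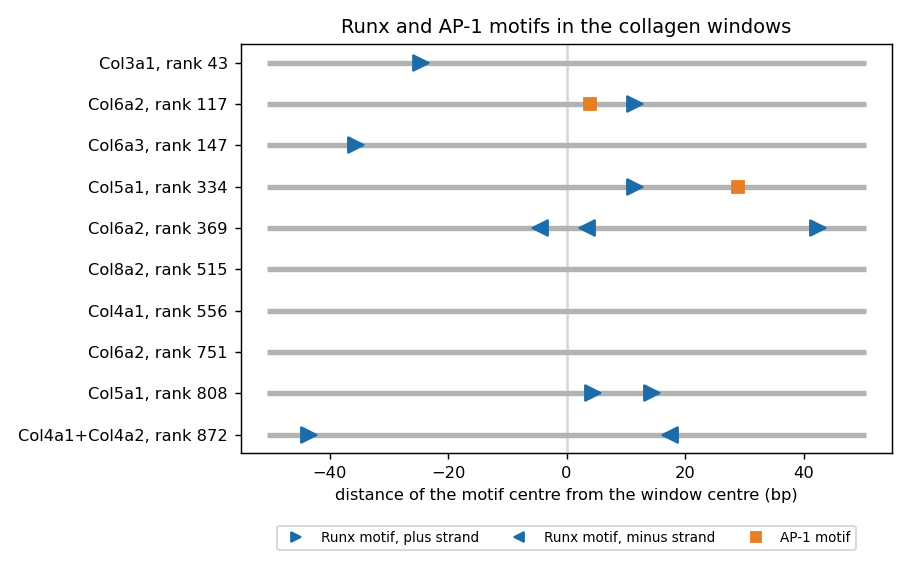
Positions of Runx motifs (triangles, pointing right for the plus strand and left for the minus strand) and AP-1 motifs (squares) in each collagen window, with the distance of the motif centre from the window centre in bp on the x axis and windows in order of rank from the top. The Col6a2 window of rank 117 has the AP-1 motif next to the Runx motif, and the windows of ranks 515, 556 and 751 are empty.

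In base composition, the collagen windows had a median of 54.5% G and C, the same as the main list. The lowest was the Col3a1 window at 38.6%. The Col8a2 window stood apart at 78.2%, above 979 of the 1000 windows. It held 14 CpG dinucleotides, a number that 58 windows reached, against a median of 3 in the list and 0 to 4 in the other collagen windows. The Col6a3 window ended in an uninterrupted TG repeat of 27 bp. The Col4a1 window of rank 556 began with such a repeat of 11 bp. Repeats of 10 bp or more occurred in 26 windows of the list (2.6%).

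**Figure D4:**
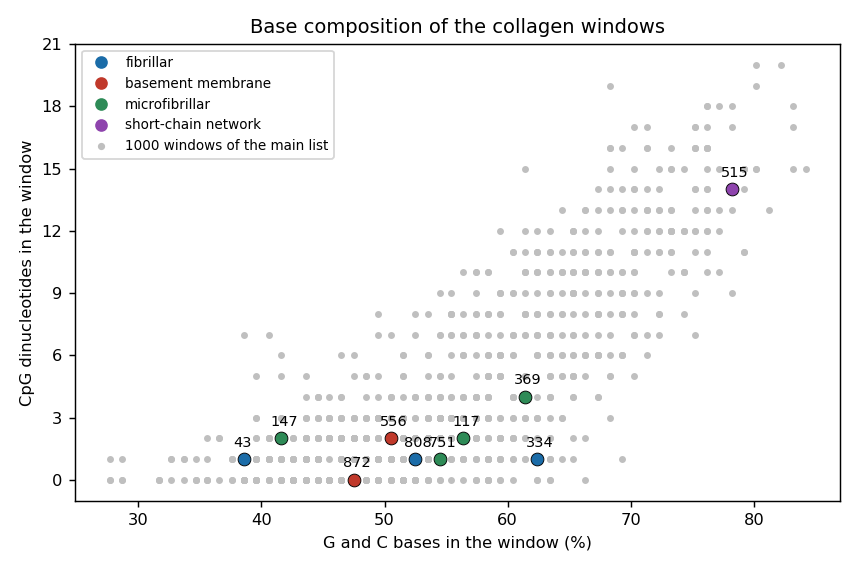
Share of G and C bases in % (x axis) and number of CpG dinucleotides (y axis) of the 1000 main-list windows (grey) and the collagen windows (coloured by class, labelled by rank). The Col8a2 window of rank 515 lies at 78.2% with 14 CpG dinucleotides, apart from the other collagen windows, which have at most 4.

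To place the 7 genes among their family, the distance from each annotated start to the nearest window was measured for 44 collagen genes of GENCODE, grouped by structural class. A main-list window lay within 50 kb of the start for 6 of 44 (13.6%, 6.40 to 26.7), against 7.88% of 22367 protein-coding genes. They were Col3a1, Col6a2, Col6a3 and Col8a2 of the examined genes, with Col5a3, another fibrillar type V chain, and Col17a1, a transmembrane collagen of epithelial cells. A window lay inside 6 of 44 collagen genes (13.6%), namely Col3a1, Col5a1, Col4a2, Col6a3, Col8a2 and the fibrillar Col27a1, against 2.11% of protein-coding genes. Collagen genes were longer, with a median length of 114 kb against 15.4 kb, and a longer gene has more room for a window. The part of length in this share was not tested. As several of these genes were chosen for having windows, the shares are descriptions.

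By class, 2 of 11 fibrillar genes had a window within 50 kb of the start and 3 of 11 had one inside the gene. Of the 6 type VI genes, 2 had a window within 50 kb and 1 had one inside. None of the 6 type IV genes had a window within 50 kb of the gene start, and Col4a2 was the type IV gene with one inside. This count depended on the start used. The window of rank 872 lay at -22454 bp from the start of a shorter annotated Col4a2 transcript, and a Col4a1 transcript starts 42902 bp from the window of rank 556. Of the 3 short-chain genes, 1 had both. The 9 fibril-associated collagen genes had none by either measure, nor did the 2 multiplexin genes and the 3 anchoring and other genes. With so few genes per class the Wilson intervals of the shares within 50 kb were wide and overlapped. Classes were not tested against each other, and neighbouring genes can share a window. No difference between classes, or lack of one, is read from these counts. The interval of type VI (9.68 to 70.0) began above the share of all protein-coding genes, but both of its genes with a window, Col6a2 and Col6a3, were among those chosen.

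**Figure D5:**
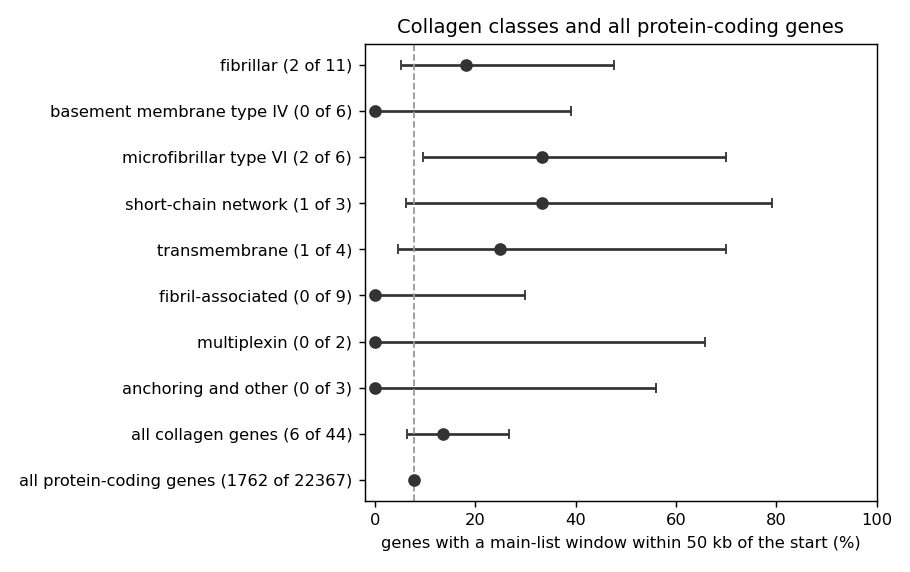
Share of genes in % with a main-list window within 50 kb of the start (x axis) for each class of collagen, all collagen genes and all protein-coding genes, with Wilson 95% intervals as bars and the share of all protein-coding genes as a dashed line. The intervals of the 8 classes overlap one another, and those of the 4 classes without such a gene start at 0.

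Other collagen genes were also listed as neighbours. Apart from Col5a2 and Col6a1, they were Col5a3 (ranks 664 and 891, nearest at 49.6 kb), Col11a1 (rank 58, at 998 kb), Col24a1 (rank 742, at 174 kb), Col27a1 (rank 644, at 96.1 kb) and Col17a1 (rank 761, at 39.3 kb). In all, 13 of 44 collagen genes had a deposited row, including 7 of the 11 fibrillar genes. Rows were given for 1966 genes of any kind, at distances of up to 10 Mb. The share over all genes was not computed, so nothing particular to collagens or to a class is read from these counts. For Col27a1 the lists gave windows whose centres were 163 bp apart, at rank 644 in the main list and rank 112 in the IgG-named list. These did not overlap, and this was a larger difference in rank than in any of the 9 collagen windows described above.

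Genes that act on collagen were examined from lists of enzymes, partners and receptors. Of 26 genes of collagen folding, processing and crosslinking, 5 had a main-list window within 50 kb of the annotated start (19.2%). They were Loxl1 and Lox, which crosslink collagen and elastin, at 0.02 and 29.1 kb, Serpinh1, the collagen chaperone, at 7.35 kb, and P4hb and P4ha2, subunits of prolyl 4-hydroxylase, at 18.3 and 39.5 kb. The Loxl1 window was at rank 981 in the main list, whereas the nearest window of the IgG-named list was at rank 464. The nearest P4ha2 window of the IgG-named list was 115 kb away. Of 14 fibril partners, 4 had such a window, with Comp at 1.46 kb, Fmod at 2.38 kb, Tnxb at 10.7 kb and Prelp at 20.7 kb. The receptors Itga11 and Ddr2 had 1 each, at 34.7 and 26.1 kb, among 10 receptor genes. Of 17 basement membrane partners, 1 had a window, Lamb2 at 27.1 kb, which had no deposited row and was named after its value was seen. Together, 12 of 67 such genes (17.9%) had a window within 50 kb, against 7.88% of all protein-coding genes. The lists were chosen with earlier results known, so nothing particular to them is read from these shares.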

How the data were processed

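ChIP-seq peaks of 3 libraries, 1 per group (RUNX3-FLAG, IgG and input), were analysed from the deposited tables. According to the study's methods, the authors aligned reads with bowtie to the unmasked mm9 genome and called peaks with CisGenome by comparison of each sample with input, filtered on P value and false discovery rate. The deposited values were ranks, positions and distances in bp, written by the authors' software, with no read count or P value per window in the columns used. Deposited positions start at 0 and include both ends, and they are printed with 1 added. Sequences, exons and further starts came from the mm9 assembly (NCBIM37) and GENCODE vM1. The collagen genes and all lists were chosen with earlier results of these data known. Every listed collagen gene with a deposited row was named, as were nearest genes, and listed genes of collagen processing, partners and receptors with a window within 50 kb. Of 45 collagen symbols 44 were found in GENCODE. Shares have Wilson 95% intervals. No test was made. The alternatives were the IgG-named list, other distance limits, other definitions of the gene of a window, higher ranks, a narrower motif and a wider window. The 4 steps of motif search, distance and interval were tested on simulated data, and 4 passed. Python 3.11.15, pysam 0.24.0, pandas 2.3.3, numpy 2.4.6, scipy 1.17.1 and matplotlib 3.10.9 were used.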

Additional observations from a re-analysis of the deposited data

How the results depend on the processing

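Of 21 alternatives tried on 6 summary values, 15 kept counts and medians within 1.5 times, or the motif share within its Wilson interval. The 9 collagen windows fell to 5 within 50 kb of the start. They fell to 2 with a limit on rank that lay directly before the Col5a1 window of rank 334. Of the collagen genes, 1 had a window within 10 kb of the start, 12 within 100 kb and 11 within 50 kb of any base of the gene, in place of 6. Widening each window by 50 bp on both sides raised the share with the Runx motif to 88.9%, against 83.4% of the main list treated alike. The narrower motif TGNGGT, with C or T at N, gave 55.6%, against 52.9% of the list. Adding the window inside Col6a3, an alternative chosen after seeing the data, gave 70.0% of 10 windows. With GENCODE transcript starts the median distance was 34.1 kb in place of 49.3 kb. Col5a1 and the type IV genes had no window within 50 kb of the deposited start. No paired analysis was possible because no group had more than 1 library, so none could be left out. Depth and peak height were not in the columns used, so the strength of a window is known only by its rank.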
